A study of Mus musculus with 12 samples.

Results

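The proteasome genes were taken by symbol: every row of the count files whose name begins with Psma, Psmb, Psmc, Psmd, Psme, Psmf or Psmg followed by a digit. The rule found 49 of the 12212 gene symbols listed. Of these, 5 encode immunoproteasome parts (Psmb8, Psmb9, Psmb10, Psme1 and Psme2) and 44 are the rest. RNA was taken from germinal center B cells in the spleen of the strain NZBWF1/J, a mouse hybrid in which a disease like lupus arises without treatment. B cells were enriched by negative selection and sorted by flow cytometry into light zone and dark zone cells. The 4 groups of 3 libraries each were light zone treated, light zone control, dark zone treated and dark zone control, with 1000 cells per library. Treated mice had CTLA4-IG, a decoy receptor for the costimulatory ligands CD80 and CD86, at 200 ug, and Anti-CD40L, an antibody to the T cell ligand of CD40, at 250 ug. Each was given 6 times over 2 weeks, beginning at an age of 18 weeks, and both treated groups had both agents ("Double" in the labels). Control mice were untreated and of the same strain, and the labels do not give their age. The series sets out to describe how short treatment with both agents changes B and T cell phenotypes in this lupus model.

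The proteasome is the cell's main protease for proteins tagged with ubiquitin. Its barrel, the 20S particle, stacks rings of alpha subunits (Psma) on rings of beta subunits (Psmb), and 3 of the beta subunits cut peptide bonds. The 19S cap holds ATPases (Psmc), which unfold substrates and thread them into the barrel, and non-ATPases (Psmd), which bind and deubiquitinate them. Under interferon, and in lymphoid cells at rest, Psmb8, Psmb9 and Psmb10 take the place of the constitutive catalytic subunits Psmb5, Psmb6 and Psmb7, giving the immunoproteasome. Its cut ends favour loading onto MHC class I, and the cap PA28, made of Psme1 and Psme2, is induced by interferon gamma as well. Light zone B cells process antigen and present it to T cells.

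The promoters of 5 genes are shown because they belong to immunoproteasome genes and a constitutive counterpart that the comparisons rest on, and the window of Psmb10, which held none of the motifs searched, is not printed. The sequences are from the RefSeq table for build GRCm38.p6, run 5′ to 3′ on the gene's strand and cover 250 bases before to 50 after the start. Capitals mark matches, on either strand, to GAAANNGAA (interferon-stimulated response element), TTCNNNGAA (STAT site), GGGNNTTCC (kappa B) or TGANNNNGC (a form of the antioxidant response element, which Nfe2l1 and Nfe2l2 bind).
Psmb8 promoter, chr17:34197945-34198244, plus strand: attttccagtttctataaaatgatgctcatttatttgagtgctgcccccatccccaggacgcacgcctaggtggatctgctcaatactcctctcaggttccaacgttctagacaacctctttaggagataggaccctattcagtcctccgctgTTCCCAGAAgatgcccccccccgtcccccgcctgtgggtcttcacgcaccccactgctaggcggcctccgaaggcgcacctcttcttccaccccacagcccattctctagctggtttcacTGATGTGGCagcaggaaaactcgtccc
Psmb9 promoter, chr17:34187281-34187580, minus strand: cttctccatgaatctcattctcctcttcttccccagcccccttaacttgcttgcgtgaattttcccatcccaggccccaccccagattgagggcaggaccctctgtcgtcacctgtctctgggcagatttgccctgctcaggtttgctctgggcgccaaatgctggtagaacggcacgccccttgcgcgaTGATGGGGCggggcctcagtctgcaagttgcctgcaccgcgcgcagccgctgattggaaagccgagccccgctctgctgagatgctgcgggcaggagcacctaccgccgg
Psme1 promoter, chr14:55578244-55578543, plus strand: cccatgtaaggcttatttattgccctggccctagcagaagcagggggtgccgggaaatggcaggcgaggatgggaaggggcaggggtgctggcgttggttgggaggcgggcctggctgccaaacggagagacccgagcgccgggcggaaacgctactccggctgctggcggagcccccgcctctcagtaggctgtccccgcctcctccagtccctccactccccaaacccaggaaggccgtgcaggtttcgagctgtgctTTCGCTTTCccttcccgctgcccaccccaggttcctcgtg
Psme2 promoter, chr14:55591052-55591351, minus strand: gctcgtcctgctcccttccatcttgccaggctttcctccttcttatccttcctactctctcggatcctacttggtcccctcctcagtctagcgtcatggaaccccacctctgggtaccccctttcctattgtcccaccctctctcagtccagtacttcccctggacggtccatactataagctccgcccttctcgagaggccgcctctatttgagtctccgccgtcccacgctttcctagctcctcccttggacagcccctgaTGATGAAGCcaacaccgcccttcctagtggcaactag
Psmb5 promoter, chr14:54617946-54618245, minus strand: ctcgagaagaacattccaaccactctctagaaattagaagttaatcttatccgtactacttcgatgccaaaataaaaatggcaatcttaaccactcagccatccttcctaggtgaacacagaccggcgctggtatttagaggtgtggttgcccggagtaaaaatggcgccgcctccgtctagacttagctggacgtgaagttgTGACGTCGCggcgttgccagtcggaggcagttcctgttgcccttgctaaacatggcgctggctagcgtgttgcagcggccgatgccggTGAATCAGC
The Psmb8 window held a STAT match 97 bases before its RefSeq start. The Psme1 window held an interferon-element match 10 bases after its RefSeq start. In the GENCODE M21 annotation Psmb8, Psmb9 and Psme1 begin further upstream, so their windows lie inside those genes. Psmb9 and Tap1, which encodes a chain of the peptide transporter into the endoplasmic reticulum, are read outward from a shared stretch, and their windows have 275 bases in common. In the counts that follow, a proteasome gene was counted if any of its windows held a match, while the shares are of single windows. Genes with more than 1 window thus had more chances to be counted, and the shares are not on the same footing. Of the 41 proteasome genes with a window, 7 held the interferon element, against 8.56% of all 32851 windows. The STAT match was in 3 of 41, against 8.3% of all windows, and the kappa B match in 1 of 41, against 5.82%. Among the 5 immunoproteasome genes the interferon and STAT matches were in 1 each. The antioxidant form was in 23 of 41, which is 56.1%, against 41.3% of all windows. None of the matches shown overlapped another, and a match describes letters only.

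Some facts of the libraries bear on every value below. Library totals ran from 16032373 to 26837064 counts, so that 3 counts, used here as a floor, corresponded to 0.0776 to 0.206 CPM. CPM is the usual count scaled to library size, here with totals adjusted by the TMM method. As a further fact, 3 treated libraries stood apart on the first principal component of all genes, which held them at 146.6 to 165.7 and the other 9 at -102.9 to 20.42. They were light zone treated replicate 2 and dark zone treated replicates 1 and 2. Every value given without them rests on 2 light zone treated libraries and 1 dark zone treated library, and the spread of that single library is taken from the other groups. In the 3 libraries 10 macrophage markers summed to 102 to 260 CPM, against 7.27 to 67.9 CPM in the other 9, and 7 germinal center markers summed to 1508 to 1968 CPM, against 3241 to 4477 CPM. Much of the sum in the other 9 was Rgs13, at 166 to 254 CPM against 1503 to 2514 CPM, while S1pr2 of the same list was higher in the 3, at 299 to 328 CPM against 68.5 to 169 CPM. The 5 B cell markers summed to 4905 to 6069 CPM in these libraries and to 5600 to 9015 CPM in the other 9. Plasma cell markers (5 genes) summed to 1310 to 2411 CPM, against 6431 to 11545 CPM, which was nearly all Jchain, at 1109 to 2154 CPM against 6206 to 11324 CPM, and the ranges of the other 4 overlapped. T cell markers (7 genes) summed to 135 to 298 CPM, against 86 to 224 CPM, and neutrophil markers (4 genes) to 1.06 to 55.1 CPM, against 0 to 2.17 CPM. Erythroid markers (5 genes) summed to 61.3 to 261 CPM in the 3, to 1388 CPM in dark zone control replicate 1 and to 1.57 to 9.24 CPM in the other 8. Dendritic cell markers (3 genes) and the NK cell marker Gzma overlapped, at 34.9 to 43 CPM against 14.1 to 170 CPM and 1.38 to 5.3 CPM against 0 to 6.44 CPM. The control zones differed as well. Macrophage markers summed to 36 to 46.8 CPM in light zone control and 7.27 to 25 CPM in dark zone control libraries. These light zone sums were each mostly 1 gene. Germinal center markers summed to 3241 to 3766 CPM in the light zone, against 4275 to 4477 CPM. Dendritic cell markers summed to 55 to 87.2 CPM, against 89.1 to 170 CPM. Sums of the other types overlapped between these groups. The part of all these markers in the results was not tested. In bulk samples, fewer cells of a type and less RNA per cell cannot be told apart. Psme2b is a copy of Psme2 in 1 exon on chromosome 11, with 712 of 717 coding bases identical. The stretch with most of the differing bases shows how near the copies are, with the differences in capitals.
Psme2 coding bases 484 to 543, chromosome 14: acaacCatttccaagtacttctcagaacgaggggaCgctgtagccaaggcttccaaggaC
Psme2b coding bases 484 to 543, chromosome 11: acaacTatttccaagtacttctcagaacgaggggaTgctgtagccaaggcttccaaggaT
The counts of Psme2b exceeded those of Psme2 by 2.13 to 2.23 on the log2 scale in every library, so the rows moved together. Reads may have been shared between the copies, which was not tested. Counts below that include both rows may thus count the same signal again.

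Across all 12081 genes tested, edgeR's quasi-likelihood test called 0 genes (0%) at an adjusted p under 0.05 in each of the 6 comparisons, and so 0 proteasome genes. At an unadjusted p under 0.05 it held 2 proteasome genes for treatment in the dark zone (8.9% of all genes), 0 in the light zone (7.36%), 0 for the difference between these effects (2.28%) and 9 for treatment averaged over zones (16.7%). The 9 were Psmb6, Psmb7, Psmc3ip, Psmd1, Psmd3, Psme2, Psme2b, Psmg4 and Psma8, of which Psma8 passed the filter on low counts through treated libraries alone and so had to differ. It held 0 for light against dark zone in controls (4.93% of all genes) and 2 under treatment (2.06%). DESeq2 called 73, 223, 16 and 744 genes for the 4 treatment comparisons in the same order, which is 0.62%, 1.9%, 0.136% and 6.32% of those it tested. For the zone comparisons DESeq2 called 113 genes in controls (0.96%) and 1 under treatment (0.0085%). Psmd3 in the averaged treatment comparison was the 1 proteasome gene among these DESeq2 calls. The values below are therefore descriptions of these libraries, and the words higher and lower compare means.

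Transcript levels per kilobase of transcript differed widely between parts of the particle that are built in fixed numbers. The median over control libraries was 630 CPM per kilobase for the 14 genes of the 20S rings without inducible subunits. For the 17 genes of the 19S cap it was 112 CPM per kilobase. Cap transcripts were also longer, at a median of 1591 bases against 1120 bases for the 20S genes. The part of length in this difference was not tested. Psmb3, a noncatalytic beta subunit, was highest at 1969 CPM per kilobase, followed by its ring neighbour Psmb2 at 1756 and the catalytic Psmb6 at 1608. Apart from Psma8, the lowest were Psme4, which encodes the activator PA200, at 5.29 CPM per kilobase, and Psmd3, a cap non-ATPase, at 5.36. Psmb8 stood at 941 CPM per kilobase in controls, above its constitutive counterpart Psmb5 at 455. Psmb9 had 394 CPM per kilobase, below its counterpart Psmb6 at 1608, and Psmb10 had 222, near its counterpart Psmb7 at 186. The control germinal center B cells held transcripts of both forms of the barrel, in a proportion that differed between the catalytic sites. Psma8, an alpha subunit of the testis form, was at the edge of detection. It had 0, 0.491 and 0 CPM in light zone treated, 0, 0.0574 and 0 CPM in light zone control, 0.612, 0.379 and 0.32 CPM in dark zone treated and 0.0685, 0 and 0 CPM in dark zone control libraries. It passed the filter on low counts through treated libraries alone, and no fold is given for it.

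**Figure D1:**
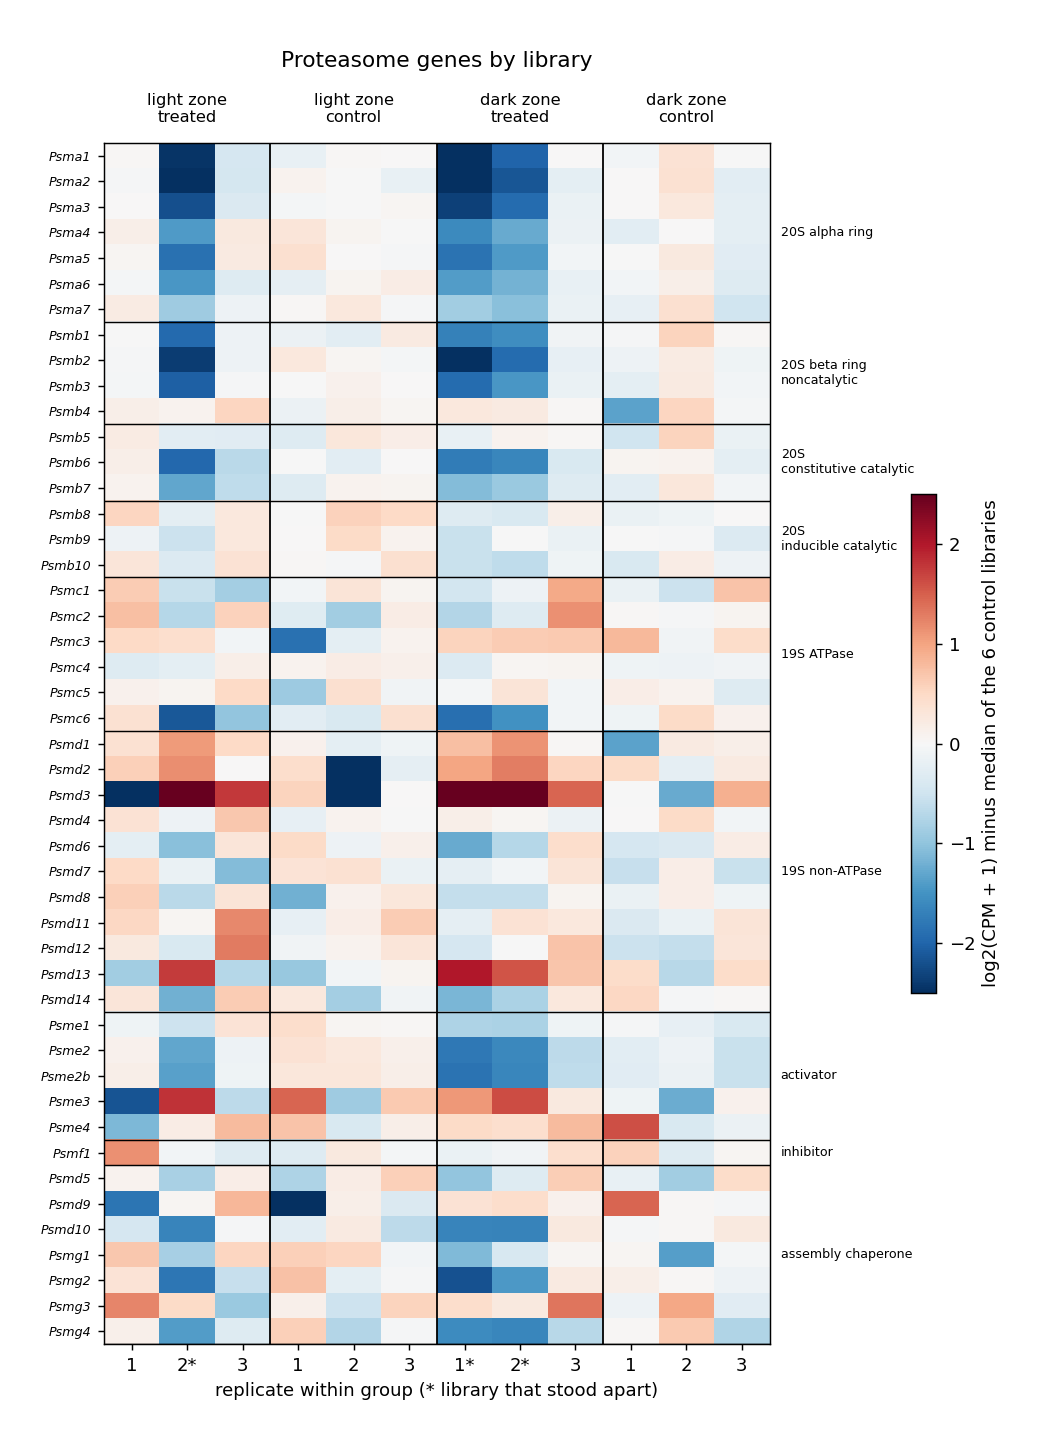
Each cell is log2(CPM + 1) of 1 gene in 1 library minus the median of the 6 control libraries, with genes grouped by role, replicate numbers on the horizontal axis and colours saturating at the ends of the scale. Blue across most 20S rows marks the 3 libraries with an asterisk, which stood apart, while the Psmd1, Psmd2, Psmd3 and Psmd13 rows are red in them (Psma8 and Psmc3ip are not drawn).

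In untreated mice all 5 immunoproteasome genes averaged higher in the light zone than in the dark zone. Their median log2 difference was 0.39, against -0.032 over the other 44 proteasome genes and 0.0015 over all genes tested. Psmb8, the inducible chymotrypsin-like subunit, had 1525, 2300 and 2159 CPM in light zone control libraries, against 1372, 1431 and 1541 CPM in dark zone control libraries. The groups overlapped in 1 library, and the log2 difference was 0.46 ± 0.30 (SE). Psmb9, which takes the caspase-like site, had 534, 741 and 562 CPM in light zone control, against 530, 518 and 420 CPM in dark zone control libraries, a log2 difference of 0.32 ± 0.30. Each light zone library was above each dark zone library, the nearest by little, and exons of Psmb9 share bases with those of Tap1. Psmb10, of the trypsin-like site, had 297, 285 and 386 CPM in light zone control, against 222, 330 and 268 CPM in dark zone control libraries, with overlap and a log2 difference of 0.24 ± 0.31. Both PA28 genes separated the zones in controls. Psme1 (PA28 alpha, whose exons overlap Emc9) had 273, 206 and 205 CPM in light zone control, against 195, 173 and 154 CPM in dark zone control libraries, a log2 difference of 0.39 ± 0.33. Psme2 (PA28 beta) had 355, 334 and 302 CPM in light zone control, against 232, 254 and 187 CPM in dark zone control libraries, a log2 difference of 0.56 ± 0.41. The adjusted p was 1 by edgeR for each of the 5. Of all 49 proteasome genes, 5 had every light zone control library above every dark zone control library (Psmb9, Psmc4, Psme1, Psme2 and its copy Psme2b), and 0 had the reverse. Over all genes these shares were 4.47% and 5.6%.

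Under treatment the light zone again averaged higher for all 5, with a median log2 difference of 0.47, against 0.28 over the other 44 and 0.052 over all genes. Without the 3 libraries that stood apart all 5 stayed higher, with a median of 0.27, against 0.023 over the other members tested and 0.092 over all genes. With scaling to library size alone 4 of 5 were higher and Psmb9 was lower, at -0.13 in place of 0.14. That scaling moved the median of all genes to -0.13. Psmb9 also changed direction when dark zone treated replicate 1 was left out, to -0.018, or light zone treated replicate 3, to -0.089. The log2 differences of the others were 0.38 ± 0.30 for Psmb8, 0.55 ± 0.31 for Psmb10, 0.47 ± 0.33 for Psme1 and 0.94 ± 0.42 for Psme2. Psme2 had an unadjusted p of 0.0449 and an adjusted p of 1 by edgeR. No immunoproteasome gene had groups without overlap here. Of the 49, 0 had all light zone treated above all dark zone treated libraries (2.24% of all genes) and 1, Psmc3, had the reverse (3.55%). The order could also be read within each set of treated libraries. Among the 3 that stood apart, light zone replicate 2 was above both dark zone replicates in 4 of 5 immunoproteasome genes, 5 of 44 others and 36.8% of all genes. Among the other 3 treated libraries, both light zone replicates were above the dark zone replicate in 4 of 5, 15 of 44 and 30.4%. Psmb8, Psmb10 and Psme2 showed both orders, as did 2 of the 44 others and 11.4% of all genes.

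**Figure D2:**
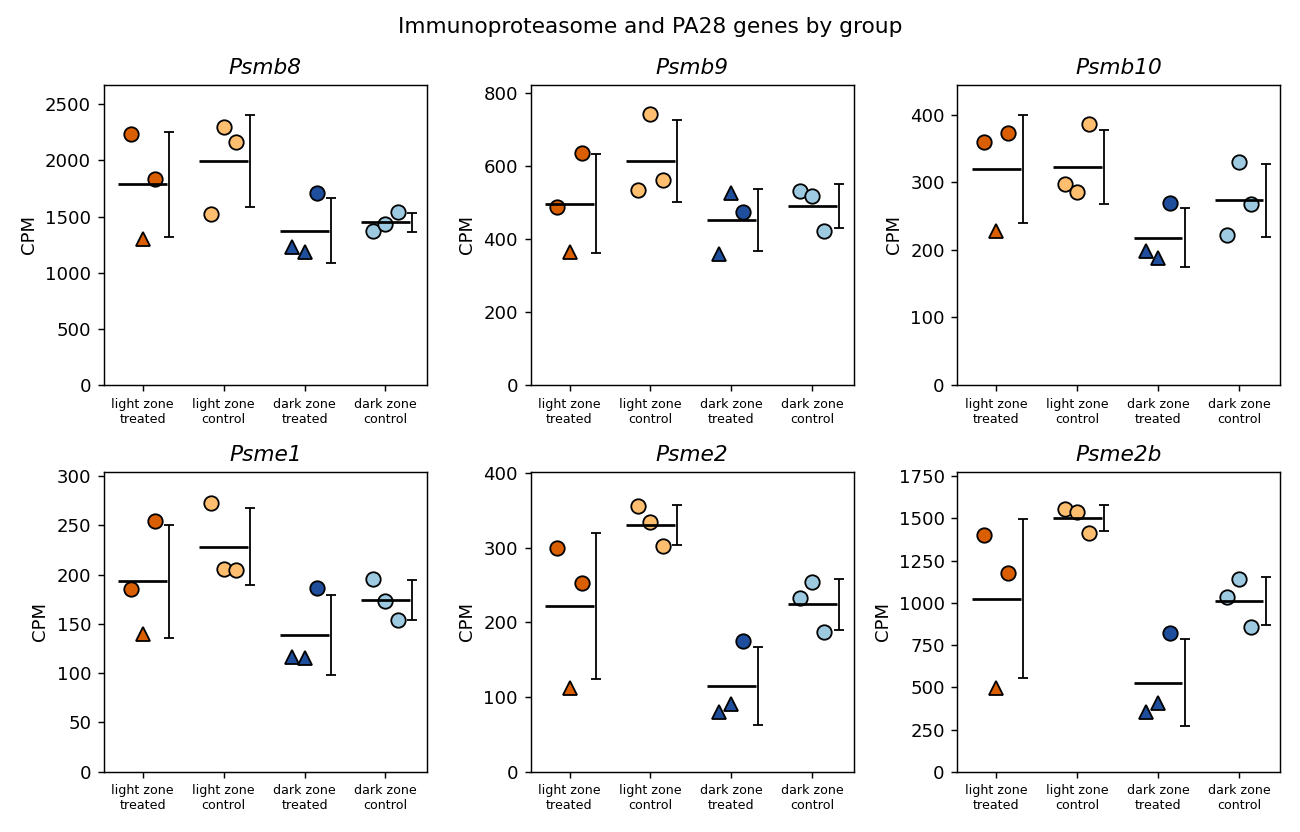
CPM of the immunoproteasome and PA28 genes in every library (circles, with triangles for the 3 libraries that stood apart), with the mean (line) and SD (bar) of the 3 libraries in each group. Light zone control libraries lie above all dark zone control libraries for Psmb9, Psme1, Psme2 and Psme2b, and the triangles lie low for Psme2 and Psme2b.

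Under CTLA4-IG with Anti-CD40L the 3 inducible catalytic subunits overlapped their controls in both zones, while Psme2 (PA28 beta) did not and averaged lower in both. Psmb8 had 2231, 1299 and 1830 CPM in light zone treated libraries and 1233, 1185 and 1706 CPM in dark zone treated libraries, which overlapped the control values given above in both zones. Psmb9 had 488, 365 and 635 CPM in light zone treated and 359, 525 and 472 CPM in dark zone treated libraries, again with overlap. Psmb10 had 359, 228 and 373 CPM in light zone treated and 198, 188 and 269 CPM in dark zone treated libraries. Its means were 320 ± 79.8 in light zone treated, 323 ± 54.9 in light zone control, 218 ± 44 in dark zone treated and 274 ± 54.1 CPM in dark zone control libraries (SD, n = 3 each). Psme1 had 185, 140 and 254 CPM in light zone treated and 116, 115 and 186 CPM in dark zone treated libraries, also overlapping the controls. Psme2 had 300, 112 and 253 CPM in light zone treated and 80.0, 90.2 and 175 CPM in dark zone treated libraries, below all control libraries of its zone. Its log2 difference was -0.58 ± 0.41 in the light zone (adjusted p 0.765 by edgeR), -0.96 ± 0.42 in the dark zone (adjusted p 0.528) and -0.77 ± 0.29 averaged over zones (adjusted p 0.246). The difference between zones in this effect was 0.38 ± 0.58, with an adjusted p of 1. Without the 3 libraries that stood apart, Psme2 differed by -0.24 ± 0.21 in the light zone and, with 1 dark zone treated library left, by -0.34 ± 0.26 in the dark zone. Its copy Psme2b gave -0.55 and -0.94 in all libraries. Psme2 and Psme2b were the 2 proteasome rows lower without overlap in both zones (2.24% of all genes were), and 0 were higher in both (1.55%).

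As a group, 5 of 5 immunoproteasome genes averaged lower in treated than control libraries in each zone, with a median log2 difference of -0.24 in the light zone and -0.32 in the dark zone. Over the other 44 the medians were -0.23 and -0.15, and over all genes 0.10 and 0.064. Without the 3 libraries that stood apart 3 of 5 were lower in each zone, and the medians were -0.044 and -0.012. With scaling to library size alone, 3 of 5 were lower in the light zone and 1 of 5 in the dark zone, where the median became 0.097. That scaling moved the median over all genes to 0.39 in the light zone and 0.51 in the dark zone.

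The ratio of an inducible subunit to the constitutive subunit it replaces does not depend on library scaling. For Psmb8 over Psmb5 the log2 ratio was 2.46 ± 0.26 in light zone treated, 2.47 ± 0.017 in light zone control, 2.00 ± 0.30 in dark zone treated and 2.11 ± 0.54 in dark zone control libraries (SD, n = 3 each), with overlap in both zones. For Psmb10 over Psmb7 the dark zone treated libraries gave 0.97, 0.73 and 0.64, against 0.30, 0.33 and 0.38 in dark zone control libraries. These groups did not overlap, and dark zone treated replicate 3, which did not stand apart, was also above the controls. In the light zone the same ratio was 0.64, 1.39 and 1.43 under treatment, against 0.78, 0.31 and 0.77 in controls, with overlap. For Psmb9 over Psmb6 the dark zone treated libraries gave -0.095, 0.35 and -1.06, against -1.35, -1.39 and -1.36 in dark zone control libraries, with no overlap. In light zone libraries it was -1.54, 0.16 and -0.35 under treatment, against -1.26, -0.53 and -1.19 in controls, with overlap. In the dark zone treated libraries Psmb6 and Psmb7 were below all dark zone controls, while Psmb9 and Psmb10 overlapped theirs. How often such separation arises for pairs of other genes was not tested.

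**Figure D3:**
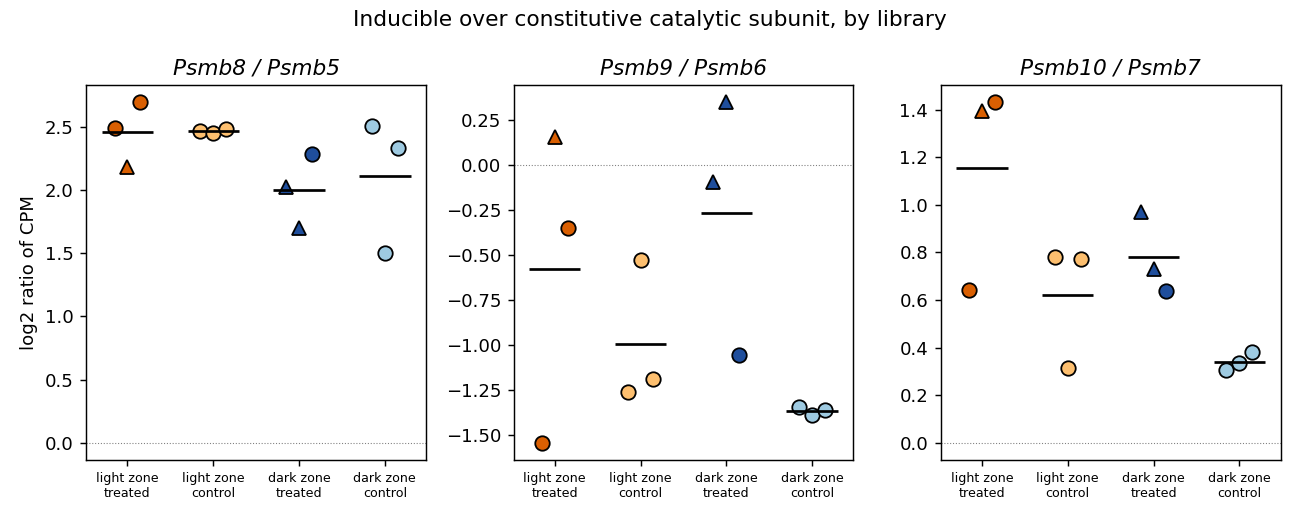
Log2 ratio of CPM of each inducible catalytic subunit to its constitutive counterpart in every library (circles, with triangles for the 3 libraries that stood apart), with the mean of each group as a line and a separate vertical scale for each pair. Dark zone treated libraries lie above dark zone control libraries for Psmb9 over Psmb6 and Psmb10 over Psmb7, and light zone groups overlap for all 3 pairs.

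The constitutive 20S genes were lower on average under treatment, and this rested on the 3 libraries that stood apart. Of the 14 genes, 13 averaged lower in treated libraries in each zone, with a median log2 difference of -0.48 in the light zone and -0.93 in the dark zone. Without the 3 libraries the medians were -0.088 and -0.12, against -0.038 and -0.11 over all genes. Psma1, an alpha ring subunit, had 1219, 217 and 893 CPM in light zone treated, against 1047, 1206 and 1190 CPM in light zone control libraries. In dark zone cells it had 208, 297 and 1188 CPM under treatment, against 1140, 1529 and 1185 CPM in controls. The low value in each group was that of a library that stood apart. Psma2, another alpha ring subunit, had 1411, 237 and 1065 CPM in light zone treated and 1530, 1435 and 1256 CPM in light zone control libraries. Among dark zone libraries Psma2 had 233, 326 and 1214 CPM under treatment and 1440, 1872 and 1192 CPM in controls. Its log2 difference was -0.64 ± 0.68 in the light zone and -1.34 ± 0.69 in the dark zone, and -0.17 and -0.29 without the 3 libraries. Psmb6, the constitutive caspase-like subunit, had 1424, 327 and 808 CPM in light zone treated, against 1281, 1067 and 1285 CPM in light zone control libraries. Its dark zone values were 383, 411 and 982 CPM under treatment, against 1350, 1355 and 1082 CPM in controls, without overlap, with a log2 difference of -1.09 ± 0.51 and an adjusted p of 0.528 by edgeR. Psmb7, the trypsin-like subunit, whose exons overlap Nek6, had 230, 86.7 and 138 CPM in light zone treated, against 173, 230 and 226 CPM in light zone control libraries, and 101, 113 and 173 CPM in dark zone treated, against 180, 262 and 206 CPM in dark zone control libraries. Psmb5, the chymotrypsin-like subunit, was not low in the libraries that stood apart. It had 397, 286 and 282 CPM in light zone treated and 276, 421 and 386 CPM in light zone control libraries, and 303, 366 and 349 CPM in dark zone treated and 242, 505 and 306 CPM in dark zone control libraries. Psmb4, a noncatalytic beta subunit, likewise had 256, 291 and 281 CPM in the 3 libraries that stood apart, within its range of 95 to 353 CPM in the other 9.

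Within those 3 libraries the parts of the particle parted. The median deviation of the 14 constitutive 20S genes from the control median was -1.91 in light zone treated replicate 2 and -1.72 and -1.44 in dark zone treated replicates 1 and 2, on the log2 scale. For the 17 genes of the 19S cap it was -0.16, -0.23 and 0.045 in the same libraries, and for the immunoproteasome genes -0.52, -0.57 and -0.63. In the other 9 libraries the 20S median stayed between -0.21 and 0.27. Of the 49 genes, 22 were lower in all 3 than in each of the other 9 (16.7% of all genes were), and 5 were higher (13.7%). The 22 held all 7 somatic alpha ring genes and Psmb8, and the 5 were Psmd1, Psmd2, Psmd3, Psmd13 and Psma8, of which Psma8 owes its place to the same filter on low counts. Across 48 genes the deviation correlated with log2 transcript length at r = 0.35, 0.37 and 0.42 and with GC content at r = 0.48, 0.48 and 0.42 in light zone treated replicate 2 and dark zone treated replicates 1 and 2. In the other 9 libraries r ran from -0.36 to 0.48 for length, so the length values of the 3 lay within that range, and from -0.11 to 0.15 for GC content. These genes share a library, so the values describe it only.

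On the means the 19S cap went the other way from the barrel, with smaller and less even differences, but in different libraries. The median deviation of the cap genes from control was 0.376 and 0.313 in light zone treated replicates 1 and 3. It was 0.314 in dark zone treated replicate 3. The 20S median in these libraries was 0.045, -0.206 and -0.163. Of the 17 cap genes, 12 averaged higher in treated than control libraries in each zone. Their median log2 difference was 0.38 in the light zone and 0.19 in the dark zone, and 0.58 and 0.32 without the 3 libraries that stood apart. Over all genes tested the medians were 0.10 and 0.064, and -0.038 and -0.11 without them. Psmd3 ranged widely. It had 0.643, 155 and 41.4 CPM in light zone treated libraries, against 17.3, 0.689 and 11.6 CPM in light zone control libraries. In the dark zone it had 114, 156 and 33.3 CPM under treatment, against 11.4, 4.20 and 22.0 CPM in controls, without overlap. Psmd3 was under 1 CPM in 1 library of each light zone group and above 100 CPM only in the libraries that stood apart, and the log2 difference was 2.87 ± 1.07 averaged over zones. Psmd3 had an adjusted p of 0.242 by edgeR and 0.0367 by DESeq2, and without the 3 libraries the difference was 1.26 ± 1.31. In the separate zones it was 2.74 ± 1.50 in the light zone and 3.01 ± 1.52 in the dark zone. Psmd2, a large scaffold subunit, had 111, 166 and 74.3 CPM in light zone treated libraries. In light zone control libraries it had 100, 6.77 and 63.1 CPM, a log2 difference of 1.05 ± 0.72 with overlap. Its dark zone values were 147, 179 and 107 CPM under treatment, against 103, 63.0 and 85.7 CPM in controls, without overlap. Psmd13, a lid subunit whose exons overlap Sirt3, had 17.5, 113 and 19.7 CPM in light zone treated, against 16.5, 31.3 and 34.5 CPM in light zone control libraries. In dark zone cells it had 134, 100 and 54.1 CPM under treatment, against 45.4, 19.9 and 45.8 CPM in controls. Under treatment Psmd13 was lower in the light zone by a log2 difference of -0.94 ± 0.74 and Psmd3 by -0.62 ± 1.41, both with overlap. Without light zone treated replicate 2 these became -2.37 and -2.29, and without replicate 1 they became -0.54 and -0.046.

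Psmc2, an ATPase of the cap singled out after its values were seen, averaged higher under treatment in both zones, and more so once the libraries that stood apart were left out. It had 423, 154 and 375 CPM in light zone treated, against 205, 138 and 287 CPM in light zone control libraries, and 151, 201 and 553 CPM in dark zone treated, against 257, 246 and 265 CPM in dark zone control libraries. The 3 treated libraries that did not stand apart were above all 6 controls, and the 3 that did were below 5 of the 6. The averaged log2 difference was 0.42 ± 0.37 in all libraries and 1.03 ± 0.23 without the 3. There the adjusted p was 0.557 by edgeR and 0.00705 by DESeq2, with 1 dark zone treated library left and for a gene chosen on these values. In the separate zones it was 0.60 ± 0.53 in the light zone and 0.24 ± 0.53 in the dark zone, where leaving out dark zone treated replicate 3 gave -0.54. Psmc3, the ATPase whose exons overlap Slc39a13, had 231, 221 and 157 CPM in light zone treated, against 44.3, 138 and 175 CPM in light zone control libraries. Its dark zone values were 243, 257 and 258 CPM under treatment, against 288, 154 and 225 CPM in controls. Psmc3 was lower in the light zone in controls by a log2 difference of -0.90 ± 0.46 with overlap, and lower without overlap under treatment. Psmd2 in controls differed between zones by -0.56 ± 0.72, which became -1.26 without light zone control replicate 1 and -0.038 without replicate 2.

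Counted over both parts, groups that did not overlap were 1 higher and 3 lower proteasome genes for treatment in the light zone (Psmd1; Psmb3, Psme2 and Psme2b), against 5.82% and 5.49% of all genes. Among dark zone libraries they were 5 higher and 6 lower, against 12.5% and 11.2% of all genes. The higher were Psmd2, Psmd3, Psmd13, Psme3 and Psma8, which passed the filter on low counts through treated libraries alone, and the lower Psmb1, Psmb2, Psmb6, Psmb7, Psme2 and Psme2b. These counts are near the share over all genes.

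**Figure D4:**
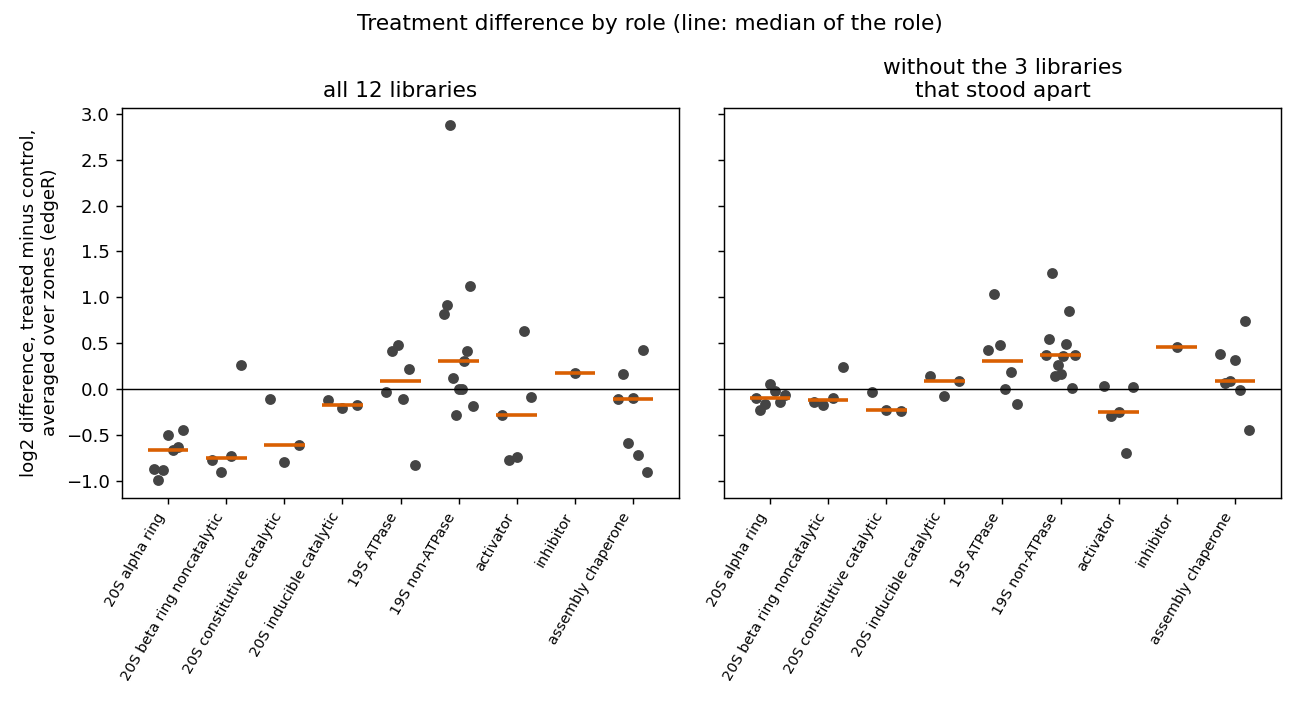
Log2 difference between treated and control libraries, averaged over zones, for each proteasome gene (points) with the median of its role (orange line), in all 12 libraries at the left and without the 3 that stood apart at the right. The 20S genes lie mostly below 0 at the left and near 0 at the right, and the 19S medians lie above 0 in both.

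The activators outside PA28, the inhibitor and the assembly chaperones gave no difference that passed the edgeR test, and their replicates ranged widely. Psme3, which encodes the nuclear activator PA28 gamma, had 6.38, 114 and 20.1 CPM in light zone treated, against 89.1, 16.8 and 50.9 CPM in light zone control libraries. In the dark zone it had 69.5, 101 and 38.1 CPM under treatment, against 29.7, 13.0 and 34.6 CPM in controls, without overlap and with a log2 difference of 1.43 ± 0.96. The difference between zones in the treatment effect was -1.59 ± 1.34 for Psme3, and light against dark zone in controls was 1.02 ± 0.95. Psme4 had 15.1, 38.9 and 59.8 CPM in light zone treated, 56.3, 26.2 and 37.7 CPM in light zone control, 48.2, 46.4 and 59.5 CPM in dark zone treated and 107, 25.9 and 31.0 CPM in dark zone control libraries. Psmf1, the inhibitor PI31, had 130, 56.0 and 46.4 CPM in light zone treated, 46.4, 69.6 and 56.5 CPM in light zone control, 52.0, 54.9 and 78.9 CPM in dark zone treated and 87.7, 46.7 and 60.6 CPM in dark zone control libraries. Both sets overlapped in both zones. Among the chaperones, Psmg4 of the alpha ring assembly had 76.4, 25.9 and 55.8 CPM in light zone treated, against 106, 41.5 and 67.9 CPM in light zone control libraries. In dark zone cells Psmg4 had 22.8, 21.9 and 42.6 CPM under treatment, against 71.4, 110 and 40.9 CPM in controls, a log2 difference of -1.35 ± 0.57 (unadjusted p 0.0368, adjusted p 0.528 by edgeR), and it was higher in the light zone under treatment by 0.86 ± 0.56. Its 3 lowest values were those of the libraries that stood apart. Psmg2, another chaperone of alpha ring assembly, had 240, 53.3 and 126 CPM in light zone treated, against 312, 159 and 183 CPM in light zone control libraries, a log2 difference of -0.64 ± 0.65. Psmg1 was higher in light than dark zone controls by 0.73 ± 0.52, with 132, 127 and 82.6 CPM against 90.0, 32.7 and 83.9 CPM. Psmd9, a chaperone of cap assembly, had 2.42, 48.3 and 33.5 CPM in light zone control, against 121, 44.7 and 42.5 CPM in dark zone control libraries, a difference of -1.31 ± 0.94 that came mostly from 1 library in each group. Psmc3ip, which matches the symbol rule but encodes a partner in meiotic recombination and no subunit, had 74.9, 16.4 and 33.8 CPM in light zone treated, against 114, 129 and 70.6 CPM in light zone control libraries. Among dark zone libraries it had 19.7, 21.7 and 88.9 CPM under treatment, against 115, 134 and 61.9 CPM in controls, with log2 differences of -1.33 ± 0.70 in the light zone and -1.26 ± 0.70 in the dark zone. Its lowest values were again those of the libraries that stood apart, and its exons overlap Mlx.

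Of the genes that work with the proteasome, Pomp, Sem1 and Ubb were low in the same libraries as the 20S genes, while the lists they belong to went both ways. Of the 9 partners outside the symbol rule, 16 ubiquitin genes and shuttles, 14 regulators and 8 peptide loading genes tested, edgeR called 0 in either direction in each comparison. DESeq2 called 3 of them, Tap1, Tap2 and Vcp, each higher in treated libraries in the averaged comparison. In that comparison it called 6.32% of all genes it tested, and the count among the listed genes is near that share. For treatment in the dark zone 4 partners averaged higher and 5 lower, 9 ubiquitin genes and shuttles higher and 7 lower, 8 regulators higher and 6 lower, and 7 peptide loading genes higher and 1 lower. Vcp, an ATPase that unfolds ubiquitinated proteins, had an averaged log2 difference of 1.54 ± 0.44, with an adjusted p of 0.228 by edgeR and 0.0216 by DESeq2, and of 0.58 without the 3 libraries that stood apart. Pomp, the chaperone that completes the 20S particle, had 709, 229 and 614 CPM in light zone treated, against 755, 830 and 760 CPM in light zone control libraries. In the dark zone it had 229, 194 and 669 CPM under treatment, against 684, 927 and 613 CPM in controls. Sem1, a small cap subunit outside the symbol rule, had 957, 226 and 867 CPM in light zone treated, against 1096, 980 and 1047 CPM in light zone control libraries, and 298, 262 and 1036 CPM in dark zone treated, against 1353, 1486 and 1040 CPM in dark zone control libraries. Ubb, a ubiquitin precursor, had 3455, 1369 and 4201 CPM in light zone treated, against 3755, 4470 and 3852 CPM in light zone control libraries, and 1275, 1471 and 3996 CPM in dark zone treated, against 3558, 4058 and 2967 CPM in dark zone control libraries. All 3 were low in the libraries that stood apart and near control in the other treated libraries. Even so, every treated library was below all controls of its zone for Sem1 in both zones (2.24% of all genes). For Pomp this held in the light zone (5.49% of all genes). Adrm1, the ubiquitin receptor of the cap, had 124, 140 and 114 CPM in light zone treated, against 109, 45.9 and 72.3 CPM in light zone control libraries, and 124, 156 and 97.4 CPM in dark zone treated, against 86.3, 43.0 and 102 CPM in dark zone control libraries. Adrm1 did not overlap its controls in the light zone and did in the dark zone.

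The neighbours of Psmb8 and Psmb9 in the MHC region of chromosome 17 did not track them. Psmb9 (chr17:34181987-34187764), Tap1 (chr17:34187553-34197225), Psmb8 (chr17:34197721-34201454) and Tap2 (chr17:34203527-34216321) lie in a row (GENCODE M21 on mm10). Tap1 had 46.3, 161 and 9.65 CPM in light zone treated, against 21.1, 15.3 and 5.19 CPM in light zone control libraries, and 107, 125 and 37.3 CPM in dark zone treated, against 29.9, 10.5 and 18.0 CPM in dark zone control libraries. Tap2, the other chain of the transporter, had 1.05, 153 and 20.1 CPM in light zone treated, against 23.5, 4.07 and 5.65 CPM in light zone control libraries, and 98.9, 112 and 1.20 CPM in dark zone treated, against 2.19, 7.49 and 5.89 CPM in dark zone control libraries. The averaged log2 difference was 2.29 ± 0.67 for Tap1 (adjusted p 0.229 by edgeR and 0.0132 by DESeq2) and 3.08 ± 1.18 for Tap2 (0.248 by edgeR and 0.038 by DESeq2). Without the 3 libraries that stood apart it was 0.99 for Tap1 and -1.08 for Tap2. Both were high in the libraries that stood apart, where Psmb8 was low and Psmb9 was within or below the range of the other libraries. Among regulators, Irf1, an interferon factor, ran from 1.64 to 65.4 CPM with overlap in all groups compared. Nlrc5, which activates MHC class I genes, had 8.19, 8.27 and 4.65 CPM in light zone treated, against 8.31, 28.6 and 11.5 CPM in light zone control libraries. Nfe2l1, which drives constitutive proteasome genes when the proteasome fails, ran from 0 to 21.5 CPM, and Nfe2l2 from 18.7 to 70.3 CPM.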

How the data were processed

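The SMART-Seq v4 Ultra and Nextera XT kits were used for all 12 libraries, per the labels, and the submitters' processing notes name BWA and mm10. Which program counted the reads, and on which annotation, is not given in the sources used. What the authors deposited are expected counts for each symbol, not scaled to a common total. Values are whole or midway between whole numbers, the latter in 8 of the 49 proteasome genes, for a reason not given. Blank cells were read as 0, and midway values were rounded up.

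Tests were run in edgeR 4.0.16 (R 4.3.3) with the quasi-likelihood F test, robust estimation, TMM scaling and filterByExpr (minimum count 10, minimum total 15), which kept 12081 genes and all 49 proteasome genes. All 12 libraries entered 1 fit with a term per group and no block. The two-sided p-values were adjusted by Benjamini-Hochberg across the 12081 genes and called at 0.05. DESeq2 1.42.0 was an alternative, and its missing adjusted p-values stayed missing. SE is the standard error of a log2 difference. Ratios used a prior count of 2. The edgeR and DESeq2 fits were first run on simulated counts for treatment in the dark zone. The simulation made no libraries stand apart, so it does not cover how the fits behave with such libraries. Since the labels do not say whether replicates are separate mice, a p-value here reflects only the scatter of these libraries, which may be technical. Floors cover counting error only. The kits do not mark strand, and exons of 10 of the 49 genes overlap another coding gene. Another 4 annotated pseudogenes bear like symbols.

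The members, gene lists and tests were chosen with earlier results of these data known. Named were the immunoproteasome genes and their counterparts, Psme3, Psme4, Psmf1, the 3 highest and 3 lowest log2 differences in each treatment and zone comparison, genes whose groups did not overlap in both zones, and partners fixed by name, of which some are not reported here; others were chosen after their values were seen. Lists are described by counts and medians, with no test of the list.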

Additional observations from a re-analysis of the deposited data

How the results depend on the processing

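Of the processing choices, the tool changed the calls over all genes and leaving out the libraries that stood apart changed the medians. DESeq2 called 73 genes for treatment in the dark zone, 223 in the light zone, 16 for their difference and 744 averaged over zones, and 113 for light against dark zone in controls and 1 under treatment, against 0 by edgeR in each. Without the 3 libraries that stood apart, an alternative chosen after seeing the data, DESeq2 called 220, 439, 231, 403, 119 and 379 genes in the same order. That fit holds 1 dark zone treated library, assumed to vary like the other groups. In the averaged treatment comparison DESeq2 called 1 proteasome gene in all libraries (Psmd3) and 1 without the 3 (Psmc2). The immunoproteasome median for treatment in the dark zone, -0.32, became -0.012 without the 3 libraries, -0.032 by DESeq2 without them and 0.097 with scaling to library size alone, which gave 0.12 for the averaged effect. The cause was not tested. Psmb9 in light against dark zone under treatment reversed to -0.13 with library size alone, and gave -0.089 to 0.31 when 1 library was left out. Psmc2 for dark zone treatment gave -0.54 to 0.55 when 1 library was left out, and the median of the other 44 genes between zones under treatment gave 0.067 to 0.74. Leaving out 1 library also moved several other differences by over 1.5 times: Psme3 to between -3.42 and -0.97 for the difference between treatment effects and between 0.39 and 1.44 between zones in controls, Psmg2 to between -1.28 and -0.24 and Psma2 to between -1.11 and -0.18 for light zone treatment, and Psmc2 to between 0.029 and 0.58 averaged over zones. Psme2 ran from -0.86 to -0.25, Psme2b from -0.85 to -0.21 and Psmd3 from 1.09 to 3.42 for light zone treatment. Psmb10 ran from 0.091 to 0.40 between zones in controls, and not all such ranges are printed. The immunoproteasome median between zones stayed between 0.31 and 0.425 in controls and ran from 0.35 to 0.73 under treatment. For treatment that median ran from -0.49 to -0.052 in the light zone and from -0.50 to -0.17 in the dark zone. Leaving out 1 library gave 0 edgeR calls in each of 48 comparisons. Other settings were the size factors of DESeq2, no filter, rounding down and fits of the groups compared alone. They kept the direction of every log2 difference printed for a single proteasome gene in all libraries. Directions for Vcp, Tap1 and Tap2, and those of the list medians, were not checked in all these settings. Whether replicate numbers pair the libraries is not given in the labels. Deviations of same-numbered libraries from group means correlated between zones at -0.307, 0.539 and 0.295 in treated libraries. In control libraries they correlated at 0.0291, -0.00311 and 0.116. Different-numbered libraries gave -0.588 to 0.56 in treated and -0.0764 to 0.0411 in control libraries. With so few libraries, some treated ones standing apart, these values cannot decide whether the numbers pair. With a replicate block edgeR called 0 genes, and the immunoproteasome median was -0.35 for treatment in the dark zone and 0.38 between zones in controls. Psma8 reached at most 0.612 CPM in any library.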
